A study of Homo sapiens with 6 samples.

Results

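Iron handling genes were examined in AsPC-1 cells, a line established from human pancreatic cancer, after lentiviral overexpression of MMP28, which encodes a secreted matrix metalloproteinase. The set was chosen by gene name and comprised 9 genes of the 58735 in the deposited table: TFRC, STEAP3, SLC11A2, SLC40A1, NCOA4, IREB2, ACO1, HFE and LCN2. All 9 genes were found, and all 9 passed the filter on low counts that left 15319 genes for testing. Per-library values are given in the order of replicates 1, 2 and 3. The control group (Vector, n = 3 libraries) carried an empty lentivirus and is labelled WT, and the other group (OE-MMP28, n = 3 libraries) carried the MMP28 lentivirus. Per the study's methods the MMP28 virus also bore GFP and puromycin resistance, and infected cells were selected with puromycin as stable lines. The methods do not name the promoter that drives MMP28 or say that clones were picked. A single cell line was used, and nothing in the labels says that the replicates were separate cultures, so p-values measure the spread between these libraries, which may be technical.

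Cells take up iron as transferrin bound to the transferrin receptor TFRC, which is carried into endosomes. There the ferrireductase STEAP3 reduces the iron and the transporter SLC11A2 (DMT1) moves it into the cytosol. Iron that is not used is stored in ferritin, made of FTH1 and FTL chains, is released when the cargo receptor NCOA4 takes ferritin to lysosomes, and leaves the cell through ferroportin, the product of SLC40A1. The RNA-binding proteins IRP1 (encoded by ACO1) and IRP2 (encoded by IREB2) adjust this system when iron is scarce: they bind hairpins called iron-responsive elements, which protect TFRC mRNA from decay when they lie behind the coding sequence and block translation when they lie ahead of it, as in ferritin and ferroportin mRNA. HFE binds TFRC at the cell surface, and LCN2 (lipocalin 2, or NGAL) is a secreted protein that captures iron-laden siderophores and is known as a product of inflamed and malignant pancreatic ducts.

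The hairpins are shown because iron-regulatory proteins are known to act on them in the transcripts of the receptor, the exporter and ferritin. They were searched in the longest annotated untranslated region of each gene (GENCODE release 29 transcripts, build GRCh38), on the transcript strand, as the letters CNNNNNCAGTGN followed by 5 bases that pair with the 5 bases before the loop, with at least 3 of 5 pairs below the bulged C and G-U pairs allowed. Capitals mark the loop of 6 bases.
SLC40A1, ahead of the coding sequence, chr2:189580662-189580688, minus strand: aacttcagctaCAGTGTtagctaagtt
TFRC element 1, behind the coding sequence, chr3:196050980-196051006, minus strand: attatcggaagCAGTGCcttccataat
TFRC element 2, behind the coding sequence, chr3:196050576-196050602, minus strand: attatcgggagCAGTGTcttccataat
TFRC element 3, behind the coding sequence, chr3:196050511-196050537, minus strand: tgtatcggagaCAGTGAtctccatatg
TFRC element 4, behind the coding sequence, chr3:196050464-196050490, minus strand: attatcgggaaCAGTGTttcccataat
FTH1, ahead of the coding sequence, chr11:61967575-61967601, minus strand: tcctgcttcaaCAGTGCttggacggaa
FTL, ahead of the coding sequence, chr19:48965336-48965362, plus strand: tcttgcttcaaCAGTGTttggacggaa

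Of the 9 genes, TFRC and SLC40A1 held a match, and the ferritin genes FTH1 and FTL are shown beside them. Over all genes, a match was found in 0.0578% of 19043 regions ahead of and 0.162% of 19146 regions behind coding sequences. TFRC held 4 matches in 2658 bases, and of the 2549 genes with a region of like length (0.8 to 1.25 times) it was the 1 gene with so many. The FTH1 and FTL elements had 4 of 5 lower pairs, and the SLC40A1 and TFRC elements had all 5. The search describes letters in annotated transcripts and measures no binding. It is no full list of such elements, since SLC11A2, which is known to make transcripts with one, held no match to these letters in the regions searched.

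Total counts per library ranged from 13633249 to 16691458. MMP28 was higher in all 3 OE-MMP28 libraries (591, 628 and 725 counts) than in the Vector libraries (226, 352 and 355 counts), with a log2 fold change of 0.90 (SE 0.19). The mitochondrial share of the counts was between 11.9% and 14.8% in Vector and between 8.80% and 11.9% in OE-MMP28 cells, and without mitochondrial genes the iron handling genes again gave 1 call higher and 2 lower. Of the ductal markers, KRT8, KRT18, KRT19 and EPCAM each averaged 288 FPKM or more (fragments per kilobase of gene, scaled to library size) in both groups, whereas CFTR had at most 5 counts. KRT7 was also low, with a mean of 1.14 FPKM in Vector and 1.81 FPKM in OE-MMP28 cells. The summed level of the 8 ductal markers was 2593 to 3540 FPKM in the Vector and 3590 to 4386 FPKM in the OE-MMP28 libraries. Of 7 tested, 2 rose (KRT19 and MUC1), beside 11.7% of all genes tested. MUC1 rose from a mean of 15.4 FPKM in Vector to 68.0 FPKM in OE-MMP28 cells. Of 10 macrophage markers, 8 stayed under 1 FPKM in every library, with PTPRC and CD163 at no more than 1 count each. The summed level of the 10 was 164 to 187 FPKM in the Vector and 106 to 146 FPKM in the OE-MMP28 libraries, nearly all of it LYZ, which fell by 0.45 on the log2 scale (adjusted p = 0.0376, edgeR). Of 8 fibroblast markers, 7 stayed under 1 FPKM, and the exception was LUM. Whether these markers bear on the iron genes was not tested, and in bulk RNA fewer cells of a type and less RNA per cell cannot be told apart.

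The question was which steps of iron handling differed at the transcript level between OE-MMP28 and Vector cells. TFRC rose 2.28-fold in OE-MMP28 cells, while STEAP3 and SLC40A1 fell by smaller amounts, and both of these calls were lost in most fits without 1 library. The other 6 genes, NCOA4, SLC11A2, both iron-regulatory proteins, HFE and LCN2, did not pass the test. In the quasi-likelihood test of edgeR, adjusted over all 15319 genes by the method of Benjamini and Hochberg, 1 of 9 genes was higher and 2 of 9 were lower at an adjusted p under 0.05, where 11.7% of all genes tested were higher and 11.6% were lower. In both directions together 3 of 9 were called, beside 23.4% of all genes, so the share called was close to that of all genes. The groups did not overlap in FPKM for 3 of 9 genes (TFRC, STEAP3 and HFE), against 38.1% of all genes tested. The median log2 fold change of the 9 genes was -0.13, beside 0.014 over all genes tested.

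**Figure D1:**
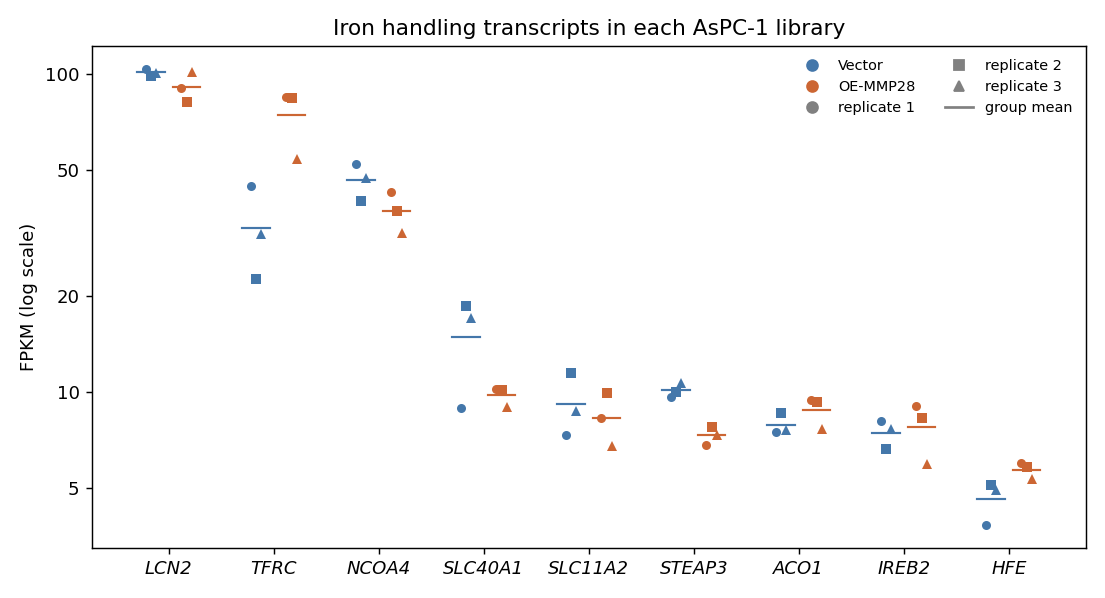
FPKM of the 9 iron handling genes (log axis) in each library, with Vector in blue, OE-MMP28 in orange, symbols for replicates and lines for group means. All 3 OE-MMP28 libraries lie above the Vector libraries for TFRC (53.99 FPKM and more against 44.4 FPKM and less), all 3 lie below them for STEAP3, and Vector replicate 1 lies apart from the other 2 Vector libraries for SLC40A1.

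TFRC (ENSG00000072274, chromosome 3, 196027183 to 196082189, minus strand) encodes the receptor that brings transferrin-bound iron into the cell. Its level was 44.4, 22.7 and 31.3 FPKM in the Vector libraries and 84.6, 83.8 and 53.99 FPKM in the OE-MMP28 libraries. Every OE-MMP28 library was above every Vector library, and both groups were spread, with the highest Vector library at 1.95 times the lowest and the highest OE-MMP28 library at 1.57 times the lowest. The group levels were 32.8 ± 10.9 FPKM and 74.1 ± 17.4 FPKM (SD, n = 3 each), from 2422 to 10554 counts per library. TFRC had a log2 fold change of 1.19 (SE 0.21), a 2.28-fold rise with a 95% interval from 1.69 to 3.06, and the adjusted p was 0.000396 (edgeR). TFRC kept this direction and an adjusted p under 0.05 in 17 of 17 alternative fits, in which the log2 fold change lay between 0.79 and 1.47. A larger rise was seen in 360 genes (2.35% of those tested), but in only 7 of the 667 genes whose mean level exceeded that of TFRC.

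The genes around TFRC also tended to be higher in OE-MMP28 cells. Of its 78 tested neighbours within 10 Mb on either side, 62 had a log2 fold change above 0, and their median was 0.39. An offset for this median left TFRC with 0.79 on the log2 scale (adjusted p = 0.0119, edgeR). TFRC lay above the median of its neighbours but within their spread. Most neighbours had a smaller log2 fold change than TFRC, but some had a larger one, such as HES1 (1.62) and FAM43A (1.27). The offset takes the median as fixed and leaves out that spread. What moved the neighbours was not tested. For SLC11A2, IREB2, ACO1, HFE and LCN2 the median of the neighbours was close to 0, between 0.023 and 0.092.

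STEAP3 (ENSG00000115107, chromosome 2, 119223831 to 119265652, plus strand), the endosomal ferrireductase that acts after TFRC, was lower in OE-MMP28 cells. It had 9.68, 10.1 and 10.7 FPKM in the Vector libraries and 6.83, 7.80 and 7.35 FPKM in the OE-MMP28 libraries. The groups were tight and did not overlap, at 10.2 ± 0.530 FPKM and 7.33 ± 0.483 FPKM (SD, n = 3 each). STEAP3 had a log2 fold change of -0.46 (SE 0.16), a ratio of 0.728 with a 95% interval from 0.581 to 0.911, and the adjusted p was 0.0375 (edgeR). This call was lost in 5 of the 6 fits without 1 library, with adjusted p of 0.0618 without Vector replicate 2, 0.168 without Vector replicate 3, and 0.0597, 0.0870 and 0.0728 without OE-MMP28 replicates 1, 2 and 3, while the log2 fold change stayed between -0.52 and -0.42. Of 84 tested neighbours, 70 had a log2 fold change below 0, with a median of -0.39, and the offset for it left STEAP3 with -0.068 on the log2 scale (adjusted p = 0.816). The antisense gene STEAP3-AS1 covers 10.96% of the exon length of STEAP3 and had 3 to 16 counts per library. The strand setting of the counts was not given, so how reads in the shared bases were assigned is not known.

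SLC11A2 (ENSG00000110911, chromosome 12, 50979401 to 51028566, minus strand) encodes the transporter that takes iron across the endosomal membrane. Its level was 7.34, 11.5 and 8.75 FPKM in the Vector libraries and 8.28, 9.93 and 6.76 FPKM in the OE-MMP28 libraries. The groups overlapped widely, with the highest value in Vector replicate 2 and the lowest in OE-MMP28 replicate 3. For SLC11A2 the log2 fold change was -0.13 (SE 0.18), a ratio of 0.911 with a 95% interval from 0.703 to 1.18 and an adjusted p of 0.633 (edgeR), and without Vector replicate 2 it was 0.058. Its transcripts with and without an iron-responsive element are not separated by counts per gene.

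SLC40A1 (ENSG00000138449, chromosome 2, 189560579 to 189583758, minus strand) encodes ferroportin, the iron exporter. It had 8.91, 18.6 and 17.1 FPKM in the Vector libraries and 10.3, 10.2 and 8.99 FPKM in the OE-MMP28 libraries. Vector replicate 1 was thus the lowest of all 6 libraries, below the whole OE-MMP28 group, while the other 2 Vector libraries were above it. The group levels were 14.9 ± 5.21 FPKM and 9.81 ± 0.710 FPKM (SD, n = 3 each). The log2 fold change was -0.59 (SE 0.21), a ratio of 0.665 with a 95% interval from 0.493 to 0.897, and the adjusted p was 0.0448 (edgeR). Without Vector replicate 1 it was -0.85 on the log2 scale (adjusted p = 0.000756). Leaving out any other library ended the call, with an adjusted p of 0.169 without Vector replicate 2, 0.168 without Vector replicate 3, and 0.0847, 0.108 and 0.149 without OE-MMP28 replicates 1, 2 and 3. The median of its 54 tested neighbours was -0.30, and the offset for it left -0.29 on the log2 scale (adjusted p = 0.383). SLC40A1 was not called by limma voom (-0.52 on the log2 scale, adjusted p = 0.0905) or by limma on log2(FPKM + 1) (adjusted p = 0.163) either.

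**Figure D2:**
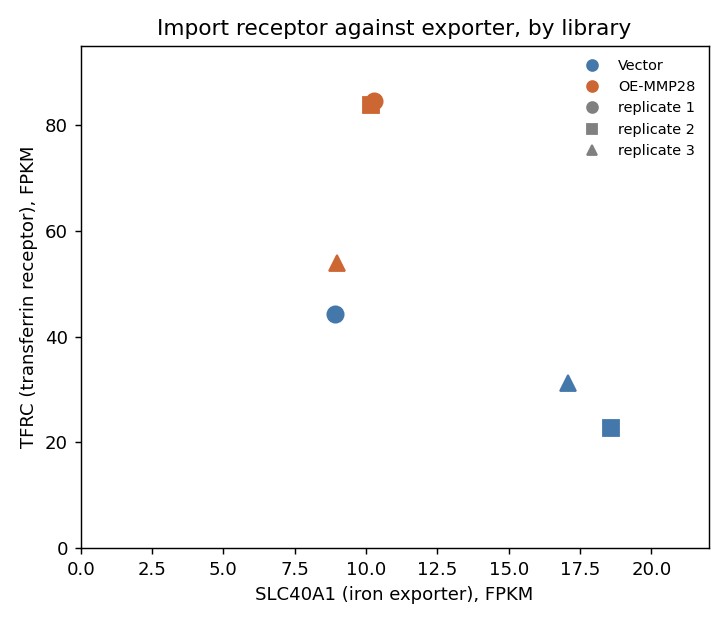
TFRC level against SLC40A1 level, both in FPKM on linear axes from 0, with 1 point per library. The OE-MMP28 libraries lie at the upper left, Vector replicates 2 and 3 lie at the lower right, and Vector replicate 1 (8.91 FPKM of SLC40A1, 44.4 FPKM of TFRC) lies next to OE-MMP28 replicate 3.

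The balance of import receptor to exporter was described as the ratio of TFRC to SLC40A1 FPKM within each library, which needs no scaling between libraries. TFRC was 4.98, 1.22 and 1.83 times SLC40A1 in the Vector libraries and 8.24, 8.24 and 6.01 times SLC40A1 in the OE-MMP28 libraries. All 3 ratios were higher in the OE-MMP28 group, and the Vector libraries differed among themselves more than the OE-MMP28 libraries did, with an SD of 1.04 against 0.26 on the log2 scale. The Vector library with the most TFRC was also the one with the least SLC40A1. These ratios are values with no test, since both genes had been compared singly.

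Storage genes were compared next. NCOA4 (ENSG00000266412, chromosome 10, 46005088 to 46030714, minus strand), which delivers ferritin for breakdown, had 52.1, 39.9 and 46.9 FPKM in the Vector libraries and 42.6, 36.9 and 31.5 FPKM in the OE-MMP28 libraries. Vector replicate 2 lay within the range of the OE-MMP28 group, so the groups overlapped. For NCOA4 the log2 fold change was -0.31 (SE 0.15), a ratio of 0.804 with a 95% interval from 0.643 to 1.01 and an adjusted p of 0.151 (edgeR). Of its 65 tested neighbours 56 had a log2 fold change below 0, with a median of -0.68, so the value of NCOA4 was nearer to 0 than this median. With the offset for that median its log2 fold change had the opposite sign, 0.36, with an adjusted p of 0.124. The 3 annotated NCOA4 pseudogenes had 1 count in total.

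Neither ferritin chain passed the test. FTH1, the heavy chain with ferroxidase activity, had 740, 618 and 545 FPKM in the Vector libraries and 440, 662 and 652 FPKM in the OE-MMP28 libraries, with a log2 fold change of -0.10 and an adjusted p of 0.705 (edgeR). FTL, the light chain, had 1154, 1722 and 1084 FPKM in the Vector libraries and 952, 970 and 1138 FPKM in the OE-MMP28 libraries, with a log2 fold change of -0.36 and an adjusted p of 0.130 (edgeR). Both chains had overlapping groups. Set against ferritin within each library, TFRC was 0.0600, 0.0367 and 0.0574 times FTH1 in the Vector libraries and 0.192, 0.127 and 0.0828 times FTH1 in the OE-MMP28 libraries. The 25 annotated FTH1 pseudogenes had together 1.08% as many counts as FTH1, and FTH1 is uncertain as far as reads were shared with them.

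The 2 iron-regulatory protein genes were close to each other in level and did not pass the test. ACO1 (ENSG00000122729, chromosome 9, 32384603 to 32454769, plus strand), whose product is a cytosolic aconitase when it holds an iron-sulfur cluster and binds RNA when it does not, had 7.51, 8.59 and 7.59 FPKM in the Vector libraries and 9.47, 9.30 and 7.65 FPKM in the OE-MMP28 libraries. OE-MMP28 replicate 3 lay among the Vector libraries and the other 2 above them. ACO1 had a log2 fold change of 0.17 (SE 0.15), with a 95% interval from -0.15 to 0.49 and an adjusted p of 0.465 (edgeR). IREB2 (ENSG00000136381, chromosome 15, 78437431 to 78501456, plus strand), whose product is degraded when iron is plentiful, had 8.13, 6.64 and 7.65 FPKM in the Vector libraries and 9.07, 8.32 and 5.97 FPKM in the OE-MMP28 libraries. The OE-MMP28 group held both its highest and its lowest library. IREB2 had a log2 fold change of 0.067 (SE 0.17), with a 95% interval from -0.28 to 0.41 and an adjusted p of 0.812 (edgeR). The ratio of IREB2 to ACO1 within a library ranged from 0.773 to 1.08 in the Vector and from 0.780 to 0.958 in the OE-MMP28 group. FBXL5, the iron-sensing part of the ligase that degrades IRP2, had 7.20 ± 0.522 FPKM and 6.93 ± 1.23 FPKM (SD, n = 3 each), with an adjusted p of 0.870 (edgeR).

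HFE (ENSG00000010704, chromosome 6, 26087281 to 26098343, plus strand), the MHC class I-like protein mutated in hereditary haemochromatosis, had the lowest mean level of the 9 genes. It had 3.84, 5.14 and 4.95 FPKM in the Vector libraries and 5.99, 5.85 and 5.33 FPKM in the OE-MMP28 libraries. The groups did not overlap, with OE-MMP28 higher, but the gap between them was small beside the spread in the Vector group. HFE had a log2 fold change of 0.31 (SE 0.17), a ratio of 1.24 with a 95% interval from 0.976 to 1.58 and an adjusted p of 0.186 (edgeR). B2M, the partner that HFE needs to reach the cell surface, had 114 ± 17.9 FPKM and 146 ± 6.15 FPKM (SD, n = 3 each), with an adjusted p of 0.0704 (edgeR). TFR2, the other transferrin receptor that HFE binds, had 1.33 ± 0.231 FPKM and 1.32 ± 0.455 FPKM (SD, n = 3 each).

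LCN2 (ENSG00000148346, chromosome 9, 128149071 to 128153455, plus strand) had the highest mean level of the 9 genes in both groups. It had 104, 98.4 and 100.5 FPKM in the Vector libraries and 90.4, 81.3 and 101 FPKM in the OE-MMP28 libraries. OE-MMP28 replicate 3 lay within the narrow Vector range, and the other 2 lay below it. LCN2 had a log2 fold change of -0.14 (SE 0.14), a ratio of 0.909 with a 95% interval from 0.737 to 1.12 and an adjusted p of 0.529 (edgeR), and the direction was the same in 17 of 17 alternative fits. Its receptors were barely detected: SLC22A17 had at most 1 count and LRP2 (megalin) at most 2 counts in any library, below the limit of 3 counts, or 0.180 to 0.220 CPM (counts scaled to the library total), that a count of 0 allows.

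**Figure D3:**
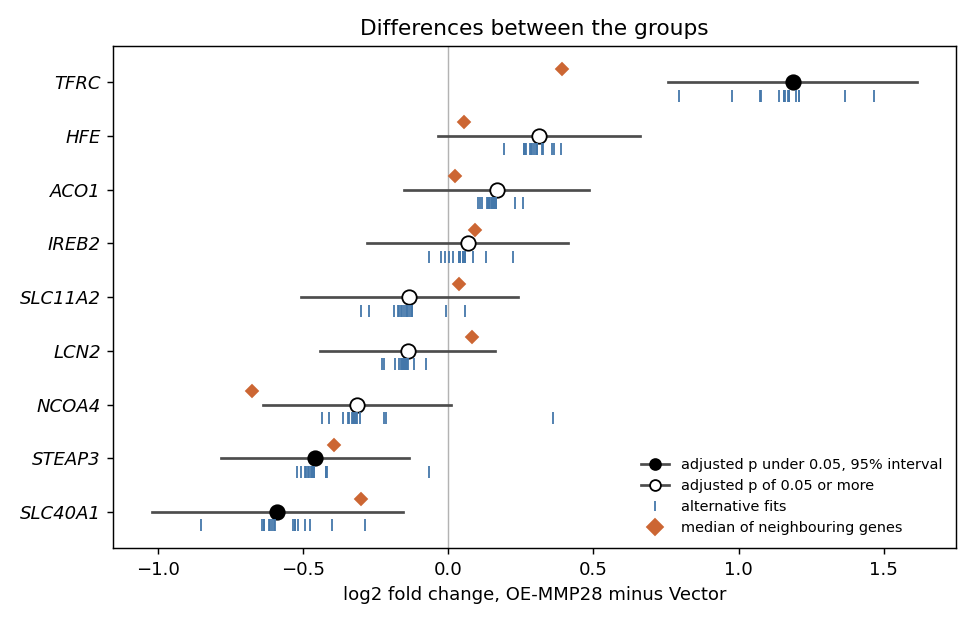
Log2 fold change (OE-MMP28 minus Vector) of the 9 iron handling genes with 95% intervals, filled where the adjusted p was under 0.05, beside the values in 17 alternative fits (blue ticks) and the median of the neighbouring genes (orange diamonds). TFRC lies apart from 0 and from its neighbours' median of 0.39, whereas for STEAP3 that median (-0.39) lies close to the gene's own value (-0.46) and for NCOA4 (-0.68) beyond it.

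In order of mean level, the Vector group ran LCN2, NCOA4, TFRC, SLC40A1, STEAP3, SLC11A2, ACO1, IREB2 and HFE, and the OE-MMP28 group LCN2, TFRC, NCOA4, SLC40A1, ACO1, SLC11A2, IREB2, STEAP3 and HFE. TFRC and NCOA4 changed places, and STEAP3 moved from rank 5 to rank 8. In the Vector group NCOA4 and TFRC overlapped over libraries, as did each pair of neighbours from SLC40A1 to IREB2, whereas in the OE-MMP28 group LCN2 and TFRC overlapped and TFRC lay clear above NCOA4. Each pair of neighbours from SLC40A1 to STEAP3 also overlapped in the OE-MMP28 group, so STEAP3 at rank 8 was not clear of IREB2 at rank 7. HFE, the lowest of the 9, was clear of all others in the Vector group, and in the OE-MMP28 group its highest library (5.99 FPKM) met the lowest of IREB2 (5.97 FPKM). The genes also differed in how much replicates varied: the coefficient of variation of FPKM in the Vector group was 2.58% for LCN2 and 5.22% for STEAP3, but 33.2% for TFRC and 35.0% for SLC40A1. In the OE-MMP28 group it was 7.24% for SLC40A1 and 23.5% for TFRC.

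The genes whose log2 CPM over the 6 libraries was most like that of TFRC were PDSS2, EIF1AXP1 and F2R, with Pearson's r of 0.999, 0.997 and 0.997. These values describe 6 libraries in 2 groups for the highest values over all 15319 genes tested and carry no test. PDSS2 rose by 0.70 on the log2 scale (adjusted p = 0.0131, edgeR) and F2R by 0.57 (adjusted p = 0.0122, edgeR), whereas EIF1AXP1 had 0.56 with an adjusted p of 0.0573 and, as a pseudogene, may share reads with its parent gene.

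Other genes of iron metabolism were taken from 6 lists with 81 genes, of which 70 were tested, 9 rose and 9 fell beside 11.7% and 11.6% of all genes. Their median log2 fold change was 0.038. Of 10 tested genes for uptake and endosomal release, SLC39A8, a zinc and iron importer, rose 2.01-fold and CYBRD1, a plasma membrane ferric reductase, fell. CYBRD1 had 31.7, 37.2 and 31.9 FPKM in the Vector libraries and 15.6, 14.0 and 11.7 FPKM in the OE-MMP28 libraries. The OE-MMP28 level of CYBRD1 was less than that of any Vector library, with a log2 fold change of -1.28 (SE 0.15) and an adjusted p of 7.78e-06 (edgeR). The reductases STEAP1 and STEAP2 had log2 fold changes of 0.13 and -0.23 with adjusted p of 0.579 and 0.339. TF, the ligand of TFRC, had at most 1 count in any library.

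Of the 5 tested genes for export and oxidation, 1 was called, beside 23.4% of all genes tested. HEPH (hephaestin), the membrane ferroxidase that works with ferroportin, had 5.38, 8.68 and 6.66 FPKM in the Vector libraries and 1.34, 1.56 and 1.14 FPKM in the OE-MMP28 libraries. Its groups were well apart, with a log2 fold change of -2.35 (SE 0.20), a 5.09-fold fall, and an adjusted p of 7.59e-08 (edgeR). The soluble ferroxidase CP had at most 7 counts and was not tested. The median of the neighbours of HEPH was 0.031, and that of CYBRD1 was -0.21.

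Of 10 tested genes of the hepcidin axis and iron sensing, 3 fell and 1 rose, beside 11.6% and 11.7% of all genes tested. BMP6, the ligand that reports iron load to hepatocytes, fell from 2.08 ± 0.588 FPKM to 0.597 ± 0.182 FPKM (SD, n = 3 each), with a log2 fold change of -1.78 and an adjusted p of 0.000478 (edgeR). NEO1, a receptor that binds hemojuvelin, fell by 0.66 on the log2 scale. EPAS1 (HIF-2 alpha), whose mRNA is known to carry an iron-responsive element, fell by 0.55, and HIF1A rose by 0.62 on the log2 scale. With the local offset EPAS1 and HIF1A were no longer called, with adjusted p of 0.571 and 0.653, and EPAS1 was not called without Vector replicate 1 (0.0502), OE-MMP28 replicate 2 (0.0579) or OE-MMP28 replicate 3 (0.0636) either. HAMP (hepcidin) had at most 1 count, so any difference was not detectable at this depth.

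Of 19 tested genes of mitochondrial iron and iron-sulfur clusters, 5 rose and 1 fell, beside 11.7% and 11.6% of all genes tested. ISCA2, FDX1, IBA57, GLRX5 and HSPA9, which assemble or deliver iron-sulfur clusters or supply their electrons, rose by 1.09, 0.76, 0.73, 0.64 and 0.49 on the log2 scale. NFU1, a carrier of such clusters, fell by 0.49 (adjusted p = 0.0471, edgeR). The median of the 19 was 0.16. With the local offset IBA57 alone of these 6 was still called, though not without Vector replicate 3 or OE-MMP28 replicate 2 (adjusted p = 0.0574 and 0.0573). HSPA9 lost its call when any library other than Vector replicate 1 was left out, and NFU1 lost its call without Vector replicate 2 or 3 or OE-MMP28 replicate 2 or 3. The importers SLC25A28 and SLC25A37 had adjusted p of 0.0502 and 0.0925, with log2 fold changes of -0.50 and -0.36.

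Of 16 tested genes of heme synthesis and breakdown, 2 rose and 2 fell, beside 11.7% and 11.6% of all genes tested. HMOX2, the constitutive heme oxygenase, rose 1.58-fold, but was not called with the local offset (adjusted p = 0.0794). BLVRA, which reduces the biliverdin that heme oxygenases release, fell from 15.6 ± 0.284 FPKM to 7.98 ± 0.502 FPKM (SD, n = 3 each), with a log2 fold change of -0.96 and an adjusted p of 0.000407 (edgeR). FLVCR2 fell by 1.32 on the log2 scale, from 0.775 ± 0.0989 FPKM to 0.305 ± 0.0917 FPKM (SD, n = 3 each). HMOX1, the inducible heme oxygenase, had 3.73, 1.88 and 1.89 FPKM in the Vector and 1.68, 1.63 and 2.08 FPKM in the OE-MMP28 libraries, with an adjusted p of 0.249 (edgeR). Of the 10 tested genes for storage and chaperones 1 fell, the glutaredoxin GLRX3 (by 0.47 on the log2 scale), and its value with the local offset was 0.10 with an adjusted p of 0.714. GLRX3 also lost its call without Vector replicate 1 or 3 or OE-MMP28 replicate 2 or 3.

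**Figure D4:**
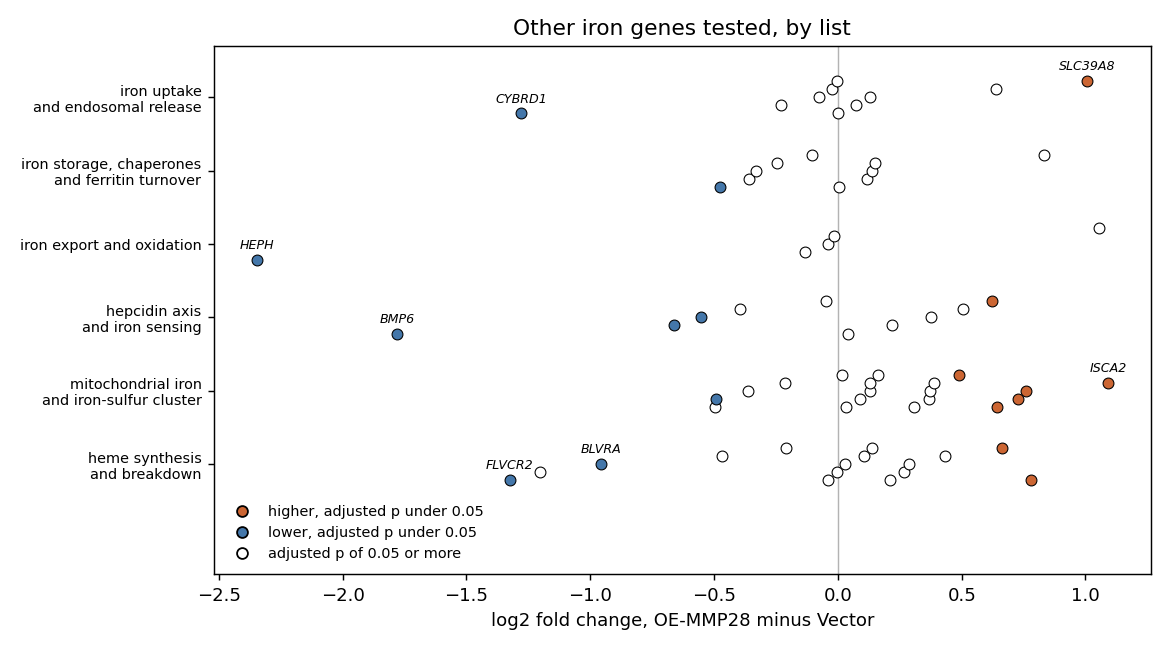
Log2 fold change (OE-MMP28 minus Vector) of the 70 other iron genes tested, in 6 lists, filled in orange where higher and in blue where lower at an adjusted p under 0.05. HEPH (-2.35), BMP6 (-1.78), FLVCR2 (-1.32) and CYBRD1 (-1.28) lie farthest to the left, and ISCA2 (1.09) and SLC39A8 (1.01) are the called genes farthest to the right.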

How the data were processed

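RNA of 6 AsPC-1 libraries was compared, with groups and replicate numbers from the sample titles. Per the labels, libraries were made with a NEBNext Ultra kit, and the submitters' processing notes list HISAT2 2.0.5 and featureCounts 1.5.0-p3. Strand setting and multi-mapping rules were not given in the sources used here. The authors deposited read counts per gene, not normalized, and FPKM values scaled to gene length and library total. Their columns of group means, fold changes and p-values were not used. The genome build was not named in the sources used here, but all 58735 gene identifiers and coordinates matched GENCODE release 29 (GRCh38). The study names limma. Here counts were tested with edgeR 4.0.16 (R 4.3.3; quasi-likelihood, TMM, group alone) after filterByExpr (minimum count 10, minimum total 15), with Benjamini-Hochberg adjustment, and limma 3.58.1 and DESeq2 1.42.0 served as alternatives. The 17 alternatives left out each library, added the replicate number as a block, or changed the filter, the scaling or the tool, or left out mitochondrial genes, or set an offset for the median log2 fold change of the tested genes within 10 Mb. On simulated counts for this comparison (15331 genes tested) edgeR recovered 85.3% of 197 changed genes, and 2.89% of its calls were false. All planted changes were larger on the log2 scale than those of every member but TFRC, so these shares do not cover changes that small. The simulation also changed far fewer genes than the 3579 called in the data, and planted no shift shared by neighbouring genes. Limits at 0 cover counting error only.

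Named genes were all 9 members, MMP28, FTH1, FTL, TF, HAMP, FBXL5, HMOX1, the called genes of the 6 iron lists and the 3 genes most like the member with the smallest adjusted p. STEAP1, STEAP2, TFR2, B2M, CP, SLC22A17, LRP2, SLC25A28, SLC25A37 and the markers were named after their values were seen. The values of 1 called gene of the lists are not reported here. Members, lists and alternatives were chosen with earlier results of these data known. No pair of libraries was a duplicate (chi-square per degree of freedom at least 13.9).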

Additional observations from a re-analysis of the deposited data

How the results depend on the processing

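In 17 alternative fits, TFRC and MMP28 kept their direction and an adjusted p under 0.05 (edgeR, DESeq2 or limma). The count of iron handling genes called lower was 2 as reported and without Vector replicate 1, and 0 in all other fits without 1 library. It was 1 with the replicate block, with no filter on low counts, with limma voom and with limma on log2(FPKM + 1) and log2(FPKM + 0.1), and 0 with the local-median offset. Without 1 library, genes called higher numbered 985 (without OE-MMP28 replicate 2) to 1916 and genes called lower 1044 (also without OE-MMP28 replicate 2) to 1949, and without Vector replicate 3 higher genes numbered 1136, against 1795 and 1784 as reported. With the local-median offset 1101 genes were higher, and 5 of the other iron genes were higher in place of 9. The direction turned for SLC11A2 (0.058 without Vector replicate 2, with -0.30 to 0.058 over the fits without 1 library), IREB2 (-0.012 without Vector replicate 2 and -0.064 without OE-MMP28 replicate 1, with -0.064 to 0.22 over these fits, and -0.025 with the local-median offset), NCOA4 (0.36) and GLRX3 (0.10), the last 2 with the local-median offset. The cause was not tested. Of the 18 other iron genes called, 7 were called in all 17 fits, and 10 were not called with the local-median offset. Same-numbered libraries deviated from their group means with correlations of -0.088 to 0.017, and no library correlated best with its own number. These values come from 3 libraries a group and cannot show whether the libraries were prepared in pairs. With the replicate block 1844 genes were higher and 1841 lower, and STEAP3 was not called (adjusted p = 0.0514). Counts from 3 libraries a group limited the genes of a few counts, such as HAMP, CP and TF.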
